A study of Mus musculus with 26 samples.

Results

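Regulatory T cells from the inflamed central nervous system (CNS) were compared with regulatory T cells from the draining lymph node of control mice with experimental autoimmune encephalomyelitis (EAE). The comparison was set by the labels alone. It takes the 3 CNS Treg and 3 draining node (dLN) Treg libraries of control mice, 6 of the 26 libraries of the series, and all genes of their tables. All mice were C57BL/6 with active EAE, were given tamoxifen from day 7 to day 14, and were sampled at day 14. Control mice carried Foxp3Cre-ERT2, a tamoxifen-dependent Cre expressed from the Foxp3 locus, and no floxed allele is given for them. The icKO mice, used here to repeat the comparison, to test for a genotype difference and in wider fits, were Foxp3Cre-ERT2 x Tnfrsf1bFlox/Flox, so that tamoxifen removes TNFR2 from Treg cells (3 CNS and 3 dLN Treg libraries). Treg cells were sorted as CD4+Foxp3+ and conventional T cells (Tconv) as CD4+Foxp3-, and polyadenylated RNA was sequenced. The 4 CNS and 3 dLN Tconv libraries of control mice served as a reference for T cells of the same tissues. The labels name each library as a mouse replicate, and p-values measure the spread between these libraries. Ages, sex, pooling of mice, perfusion, and whether CNS means brain, spinal cord or both are not given in the sources used here.

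Treg cells are CD4 T cells that restrain immune responses, and the transcription factor Foxp3 defines them. In EAE, T cells primed in draining nodes against myelin enter the CNS, where they meet microglia, the resident macrophages, and infiltrating monocytes, neutrophils and dendritic cells. Treg cells enter with them and are known to limit the attack and to promote recovery. To leave a node and enter tissue, T cells lower homing receptors for lymph nodes such as CCR7 and raise receptors for inflammatory chemokines.

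The 6 libraries held 12422708 to 16860150 expected counts, the reads that RSEM assigned to genes. Levels below are CPM, counts scaled to a common library total after TMM normalisation over these 6 libraries. Levels of Tconv libraries are on a scale over all 13 control libraries, on which the Treg values were lower by 0.44% to 2.27%. Fold changes are CNS over dLN on the log2 scale with their standard error (SE). Genes with an adjusted p under 0.05 in edgeR's quasi-likelihood test (Benjamini-Hochberg) are named called. No overlap means that every library of a group lay above every library of the other. This held for 46.2% of all 11937 tested genes. The CNS libraries varied more: limma quality weights, higher for less variable libraries, were 0.646, 0.786 and 0.546 in CNS replicates 1 to 3 and 2.67, 1.63 and 0.8285 in node replicates 1 to 3. File names of 2 of the 4 CNS Tconv libraries, replicates 3 and 4, carry the code used for icKO mice although their labels say control, so counts that use CNS Tconv libraries are given with and without those, and single genes named for a Treg minus Tconv difference are given without them in the paragraph on that test. A fit of all 26 libraries of the series, of which 1 Tconv library had few genes above 0, called 123 of the 267 list or named genes called here. That fit is left out where lost calls are given gene by gene.

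Both groups carried the RNA of Treg cells. Foxp3 (chrX:7573644-7595245, GRCm38) stood at 24.4, 24.3 and 62.0 CPM in the CNS libraries and 48.6, 39.8 and 58.4 CPM in the node libraries. The groups overlapped, with CNS replicate 3 above all node libraries, and the difference did not pass the test (log2 fold change -0.41 ± 0.38 (SE), adjusted p = 0.47). Without CNS replicate 3 Foxp3 was called lower in the CNS (log2 fold change -1.01, adjusted p = 0.015). In the 4 CNS Tconv libraries Foxp3 was at 0.89, 0.733, 1.54 and 0.382 CPM. The 17 genes of the T cell receptor complex and its proximal signalling summed to 9761, 9787 and 8550.2 CPM in the CNS libraries and 8719, 9488 and 8848 CPM in the node libraries, and the 20 Treg core genes to 5301, 7435 and 6610.0 CPM in the CNS libraries and 6169, 6279.5 and 6657 CPM in the node libraries. Both sums overlapped between the tissues. The Treg core sum was 1862 to 2436 CPM in CNS Tconv libraries, below every Treg library. Tnfrsf1b, which encodes TNFR2, was at 464, 722 and 684 CPM in the CNS libraries and 809.7, 752 and 867 CPM in the node libraries (log2 fold change -0.38 ± 0.17 (SE), adjusted p = 0.15), so the receptor that the series targets was not called different between the tissues.

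Transcripts of myeloid cells and microglia were high in every CNS Treg library. The 16 microglia genes summed to 5745, 5007 and 3812 CPM in the CNS libraries and 171, 304 and 110.1 CPM in the node libraries. The 26 tested genes of monocytes and macrophages summed to 9808, 10554 and 7062 CPM in the CNS libraries and 790.2, 1513 and 542 CPM in the node libraries. The lowest CNS library was above the highest node library in both. In the CNS Tconv libraries the microglia sum was 175, 234, 509.8 and 596 CPM and the monocyte and macrophage sum 341, 301, 547 and 727 CPM in replicates 1 to 4. The microglia sums of CNS Tconv replicates 3 and 4 were above all node Treg libraries, and the monocyte and macrophage sums of replicates 1 and 2 below them. Neutrophil genes summed to 1681, 693 and 832 CPM in the CNS libraries and 3.44, 16.4 and 0.928 CPM in the node libraries, and to 0, 1.02, 2.05 and 0.841 CPM in the CNS Tconv libraries. MHC class II genes, which carry peptides on antigen-presenting cells, summed to 8384, 8284 and 7698 CPM in the CNS libraries and 964, 1294 and 536 CPM in the node libraries. In the CNS Tconv libraries that sum was 159, 291, 532 and 1145 CPM. In bulk RNA, more cells of a type and more RNA per cell cannot be told apart, and the part of these transcripts in the other results was not tested.

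**Figure D1:**
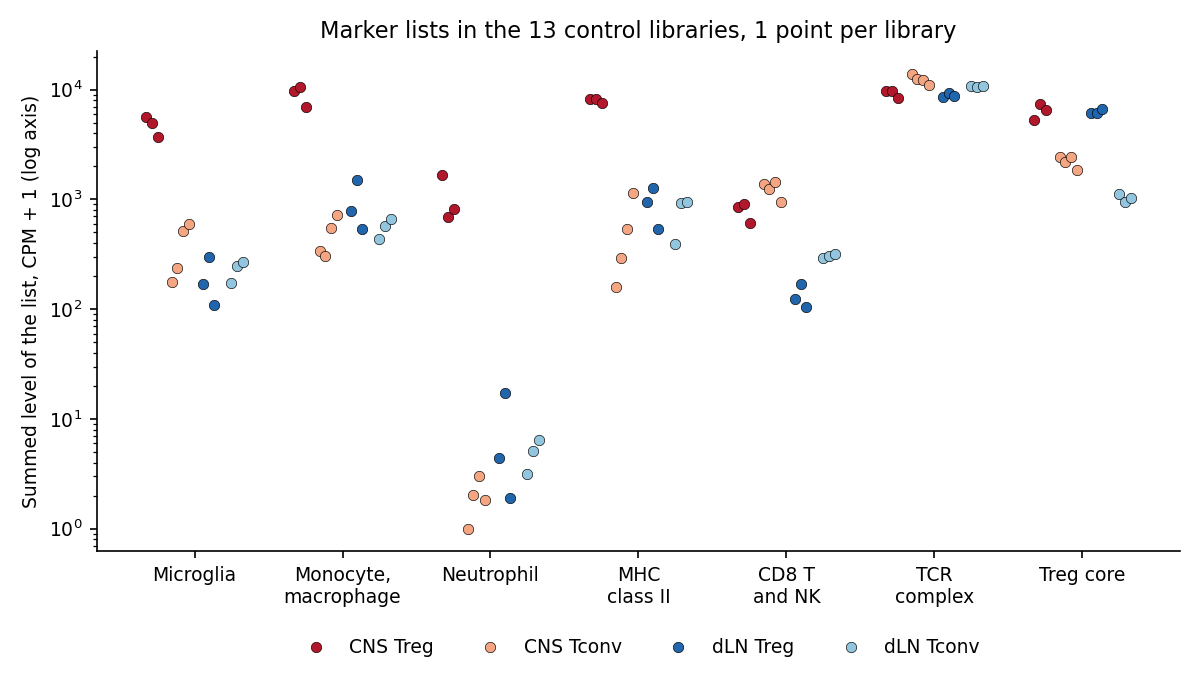
Summed level of 7 gene lists in the 13 control libraries (CPM + 1 on a log axis), 1 point per library, for CNS Treg, CNS Tconv, dLN Treg and dLN Tconv cells. The lists of microglia, monocytes and macrophages, neutrophils and MHC class II are higher in the 3 CNS Treg libraries than in all 10 others, while the T cell receptor list lies between 8356 and 14008 CPM in all 13.

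Of 105 tested genes on the 12 lists of other cells, 75 were called higher in the CNS and 0 lower, where 14.5% of all 11937 tested genes were called higher and 9.08% lower. The filter on low counts used the compared libraries. Genes without node reads could pass it only through the CNS libraries and be called only higher. Of tested genes under 1 CPM in all 6 node T cell libraries outside the comparison, 210 rose, 1 fell and 171 were not called. The filter thus bore on the direction of these counts. All 16 microglia genes were called higher, with a median log2 fold change of 6.70, as were 21 of 26 monocyte and macrophage genes (median 4.26) and 8 of 10 neutrophil genes (median 7.34). P2ry12, a purinergic receptor of resting microglia, stood at 156, 136 and 140.4 CPM in the CNS libraries and 0.701, 1.21 and 1.55 CPM in the node libraries (log2 fold change 6.97 ± 0.26 (SE), adjusted p = 1.4e-05). Cx3cr1, the fractalkine receptor of microglia and monocytes, stood at 188, 212 and 149 CPM in the CNS libraries and 0.956, 1.62 and 1.62 CPM in the node libraries (log2 fold change 7.03 ± 0.26 (SE), adjusted p = 1.4e-05). Ms4a6c, a membrane protein of monocytes, was at 111, 123 and 123 CPM in the CNS libraries and 8.09, 13.9 and 11.7 CPM in the node libraries (log2 fold change 3.41 ± 0.22 (SE), adjusted p = 0.00016). All 3 genes had no overlap between the groups, as had 46.2% of all tested genes. Camp, Ngp and Ltf, proteins of neutrophil granules, rose with log2 fold changes of 10.47, 8.02 and 8.41. Of the 75 genes, 62 were called in all 6 fits that left out 1 library, where 807 of all 1725 genes called higher were. All 72 of the 75 that could be tested in icKO Treg cells had the same sign there, near the 99.5% of all genes called higher.

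Other lists of this kind were smaller. Over all tested genes 14.5% were called higher and 9.08% lower. Of 11 dendritic cell genes 5 rose, among them Cd209a, Ccl17 and Flt3 (log2 fold changes 6.30, 6.89 and 2.99). Flt3 was called in 15 of 17 alternative settings, among them all 6 fits that left out 1 library. Of 10 MHC class II genes 8 rose, among them Cd74, the invariant chain, at 4218, 4382 and 3904 CPM in the CNS libraries and 616, 736 and 440.0 CPM in the node libraries (log2 fold change 2.80 ± 0.19 (SE), adjusted p = 0.00019). With 1 library left out the MHC class II list had 5 to 8 called higher (over 1.5 times off without node replicate 1). Of 5 B cell genes 2 rose, Ms4a1 and Cd79a. The call for Ms4a1 was lost without CNS replicates 1, 2 and 3 and node replicate 1 in turn and in the fit of 25 libraries (highest adjusted p = 0.111). The call for Cd79a was lost without CNS replicates 1 and 3 and node replicates 1, 2 and 3 in turn by limma with quality weights and with the replicate block (highest adjusted p = 0.183). Of 5 tested genes of endothelium and fibroblasts 3 rose, Flt1, Kdr and Pdgfrb. Flt1, a VEGF receptor, and Pdgfrb, a pericyte receptor, had no reads in any node library, and were at least 51.4-fold and 22.4-fold higher in the CNS against a floor of 3 counts per node library. Astrocyte genes Aldoc and Slc1a3 and the oligodendrocyte gene Cnp were called higher, and 0 of 4 neuronal genes were called; no erythroid gene passed the filter on low counts. The call for Aldoc was lost without node replicate 1 (highest adjusted p = 0.0527). The call for Slc1a3 was lost without node replicate 1 (highest adjusted p = 0.0539). The call for Cnp was lost without CNS replicates 1 and 2 and node replicates 1, 2 and 3 in turn (highest adjusted p = 0.104).

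Genes of CD8 T cells and natural killer cells, unlike the microglia, monocyte and neutrophil lists, were also high in CNS Tconv cells. The list summed to 861, 910.3 and 617 CPM in the CNS libraries and 125, 171 and 104 CPM in the node libraries, and to 1388, 1246, 1452 and 937 CPM in the 4 CNS Tconv libraries. Of 11 genes 9 rose and 0 fell, beside 14.5% higher and 9.08% lower over all genes. Nkg7, a protein of cytotoxic granules, had the smallest p of the 9, at 474, 462 and 252 CPM in the CNS libraries and 55.1, 93.6 and 64.1 CPM in the node libraries (log2 fold change 2.48 ± 0.29 (SE), adjusted p = 0.0019). Ccl5, a chemokine of activated T cells, was at 155, 187 and 172 CPM in the CNS libraries and 18.4, 24.5 and 3.33 CPM in the node libraries (log2 fold change 3.47 ± 0.58 (SE), adjusted p = 0.0062). Cd8b1, a chain of the CD8 coreceptor, was at 59.4, 64.3 and 61.4 CPM in the CNS libraries and 26.4, 30.9 and 31.6 CPM in the node libraries (log2 fold change 1.06 ± 0.15 (SE), adjusted p = 0.0039). None of the 3 overlapped between the tissues, where 46.2% of all tested genes did not.

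Among the 10 largest rises of the whole comparison were genes known from macrophages, microglia and neutrophils. Arg1, arginase 1 of alternatively activated macrophages, had no reads in any node library and stood at 93.6, 334 and 149 CPM in the CNS libraries, at least 921-fold higher. Nos2, the inducible nitric oxide synthase, was at 48.8, 281 and 34.9 CPM and at least 583-fold higher, and Fcrls, an Fc receptor-like gene of microglia, at 129, 102 and 90.4 CPM and at least 513-fold higher. Cd34, Slc2a5, Hcar2, Lhfpl2, Inhba and Trem1 were likewise at 0 in all node libraries, with lower bounds of 189, 147, 132, 107, 99.2 and 90.6-fold. Tmem119, a microglial surface protein, stood at 404, 295 and 225 CPM in the CNS libraries and at 0.319, 0 and 0 CPM in the node libraries (log2 fold change 11.29 ± 0.56 (SE), adjusted p = 5.7e-05). Restricting the search to genes with at least 5 CPM in each of 6 node T cell libraries outside the comparison (3 control Tconv, 3 icKO Treg) still named myeloid genes: of its 10 largest rises, C1qb, C1qc, Csf1r, Fcer1g, Ms4a6d and Ly6c2 are known from macrophages and monocytes, and Ifitm3, Pld4, Fos and Trf complete it. Ifitm3, an interferon-induced membrane protein, was at 527, 747 and 372 CPM in the CNS libraries and 16.1, 12.7 and 5.803 CPM in the node libraries (log2 fold change 5.56 ± 0.43 (SE), adjusted p = 0.00031).

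Over all genes, 2809 of 11937 were called (23.5%), 1725 higher and 1084 lower in the CNS, and 46.2% had no overlap between the groups. The median log2 fold change was 0.0048. Leaving out 1 library at a time gave 872 to 2019 genes higher and 264 to 1768 lower. The higher count moved by over 1.5 times only without node replicate 1, at 872. The lower count was 578 without CNS replicate 1, 567 without CNS replicate 2, 1768 without CNS replicate 3, and 264, 470 and 450 without node replicates 1, 2 and 3. In a fit of all 26 libraries, in which 1 Tconv library outside the comparison had 6005 genes above 0 against 11089 to 14259 in the others, 535 were higher and 216 lower. No gene was called in opposite directions by any of the 17 alternative settings.

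The CNS Tconv libraries, which share the tissue but held few myeloid transcripts, were used to describe the 1725 genes called higher. Of these, 388 (22.5%) had a CNS Tconv level under 0.1 of the CNS Treg level, and 922 (53.4%) a level of at least 0.5 of it, where those shares were 5.60% and 84.6% over all tested genes. The same CNS Treg libraries set the call and divide the ratio. Low ratios are thus favoured among genes called higher, so these shares are not independent of the call. Of the 75 genes on lists of other cells, 46 (61.3%) were under 0.1. Of the 104 called higher that are on T cell lists and on no list of other cells, 3 (2.88%) were: Ccr1, Cxcl10 and Tnfrsf9, with ratios of 0.053, 0.093 and 0.075. Another 40 of the 104 had ratios between 0.1 and 0.5, and 61 (58.7%) had at least 0.5. With CNS Tconv replicates 1 and 2 alone, 486 of 1725, 56 of 75 and 4 of 104 were under 0.1. Over all 11937 tested genes 976 (8.18%) were under 0.1 in that setting. The T cell lists below hold 374 tested genes that are on no list of other cells, of which 104 rose and 65 fell. Over all tested genes 14.5% were called higher and 9.08% lower. Of the 104, 61 were called in all 6 fits with 1 library left out, and of the 65, 16 were. Over all called genes these were 807 of 1725 higher and 236 of 1084 lower.

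**Figure D2:**
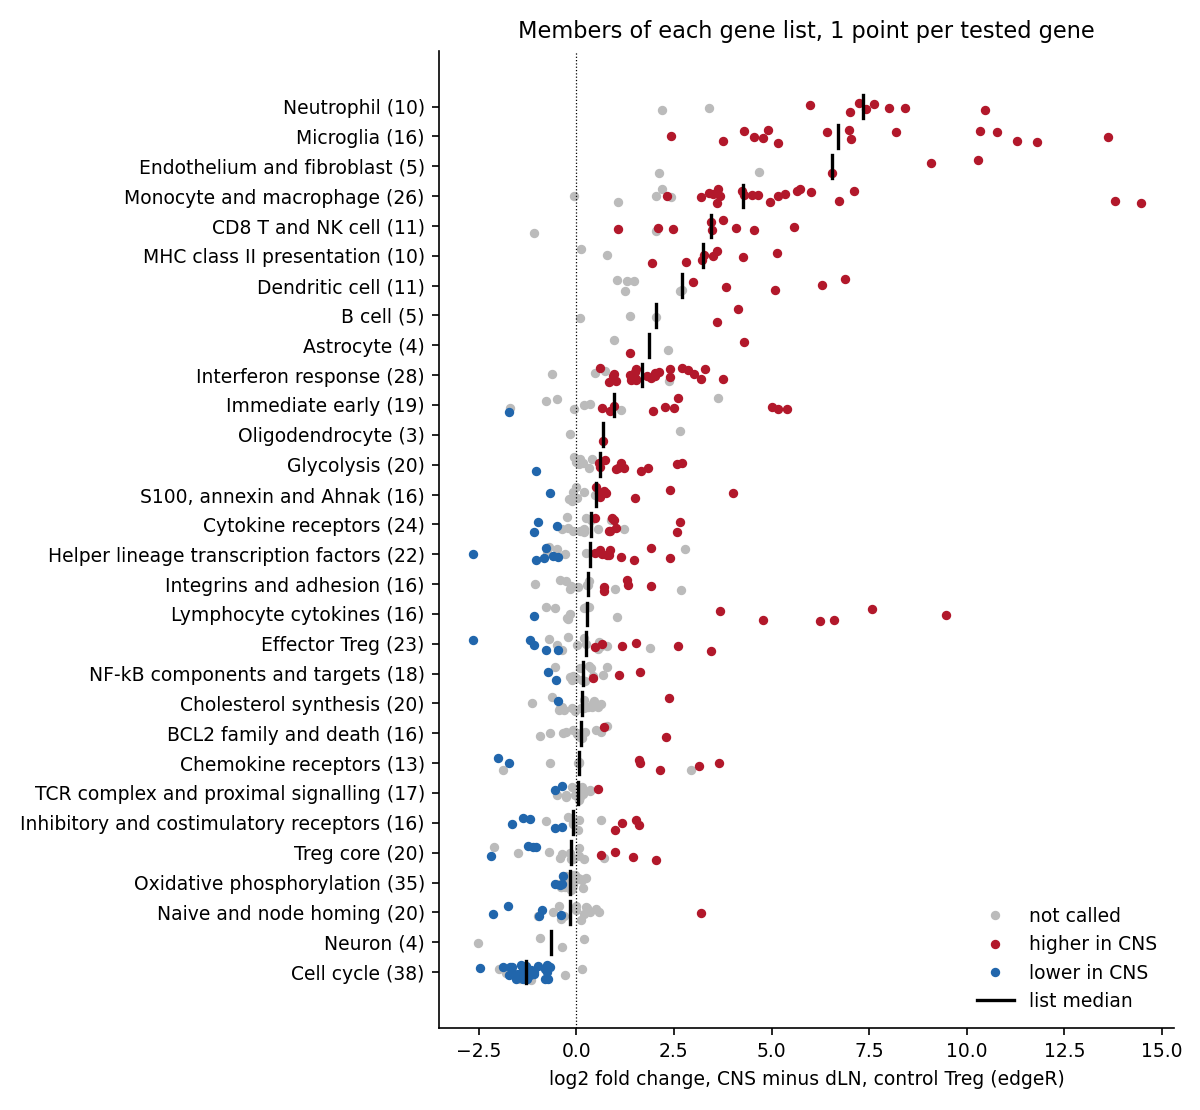
Log2 fold change (CNS minus dLN, control Treg cells) of every tested gene on each list, 1 point per gene, red when called higher, blue when called lower, grey when not called, with the list median as a bar and the number tested in brackets. Lists of myeloid cells lie far to the right, the interferon list follows with a median of 1.67, and the cell cycle list lies to the left with a median of -1.28.

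Treg identity genes moved in both directions. Of the 20 Treg core genes 4 rose, 4 fell and 12 were not called, where 14.5% of all genes were called higher and 9.08% lower. The list had a median log2 fold change of -0.15 beside 0.0048 over all genes. Ikzf2 encodes Helios, a transcription factor of stable Treg cells, and stood at 109.5, 112 and 126 CPM in the CNS libraries and 224, 235 and 255 CPM in the node libraries (log2 fold change -1.04 ± 0.12 (SE), adjusted p = 0.0015). Izumo1r, the folate receptor 4 of Treg cells, was at 160.1, 166 and 241 CPM in the CNS libraries and 397, 437 and 388 CPM in the node libraries (log2 fold change -1.11 ± 0.17 (SE), adjusted p = 0.005). Itgae, the integrin chain CD103 that binds E-cadherin, was at 61.0, 62.2 and 186 CPM in the CNS libraries and 405, 446 and 545 CPM in the node libraries (log2 fold change -2.17 ± 0.43 (SE), adjusted p = 0.011). All 3 were lower in every CNS library than in every node library, where 46.2% of all genes had no overlap in either direction. The 4th gene that fell was Cd83 (log2 fold change -1.23 ± 0.32 (SE), adjusted p = 0.028). The call for Cd83 was lost without CNS replicate 2 and node replicates 1, 2 and 3 in turn and in the fit of 25 libraries (highest adjusted p = 0.128). Neither Il2ra, the high-affinity IL-2 receptor chain (log2 fold change -0.35 ± 0.20 (SE), adjusted p = 0.24), nor Ctla4, the inhibitory receptor that removes CD80 and CD86 (log2 fold change -0.09 ± 0.27 (SE), adjusted p = 0.83), was called.

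The Treg core genes that rose were Tnfrsf18, Entpd1, Socs2 and Swap70. Tnfrsf18, the costimulatory receptor GITR, stood at 1041, 1353 and 1028 CPM in the CNS libraries and 515, 513 and 686 CPM in the node libraries (log2 fold change 0.998 ± 0.17 (SE), adjusted p = 0.0062). Entpd1, the ectoenzyme CD39 that degrades extracellular ATP, was at 110.3, 181 and 107 CPM in the CNS libraries and 40.2, 43.1 and 13.5 CPM in the node libraries (log2 fold change 2.04 ± 0.42 (SE), adjusted p = 0.013). Socs2, an inhibitor of cytokine signalling, was at 119.8, 158 and 77.6 CPM in the CNS libraries and 43.5, 40.8 and 45.3 CPM in the node libraries (log2 fold change 1.46 ± 0.24 (SE), adjusted p = 0.0064). The tissues did not overlap for these 3, nor for 46.2% of all genes. Swap70, a signalling adaptor, rose by less (log2 fold change 0.63 ± 0.12 (SE), adjusted p = 0.0099). The call for Swap70 was lost without node replicate 1 (highest adjusted p = 0.0527). In control Tconv cells Tnfrsf18, Entpd1 and Socs2 had tissue differences of 1.46, 3.26 and 3.31, all called. The tissue difference of Socs2 was smaller in Treg than in Tconv cells (Treg minus Tconv -1.86 ± 0.43 (SE), adjusted p = 0.04).

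**Figure D3:**
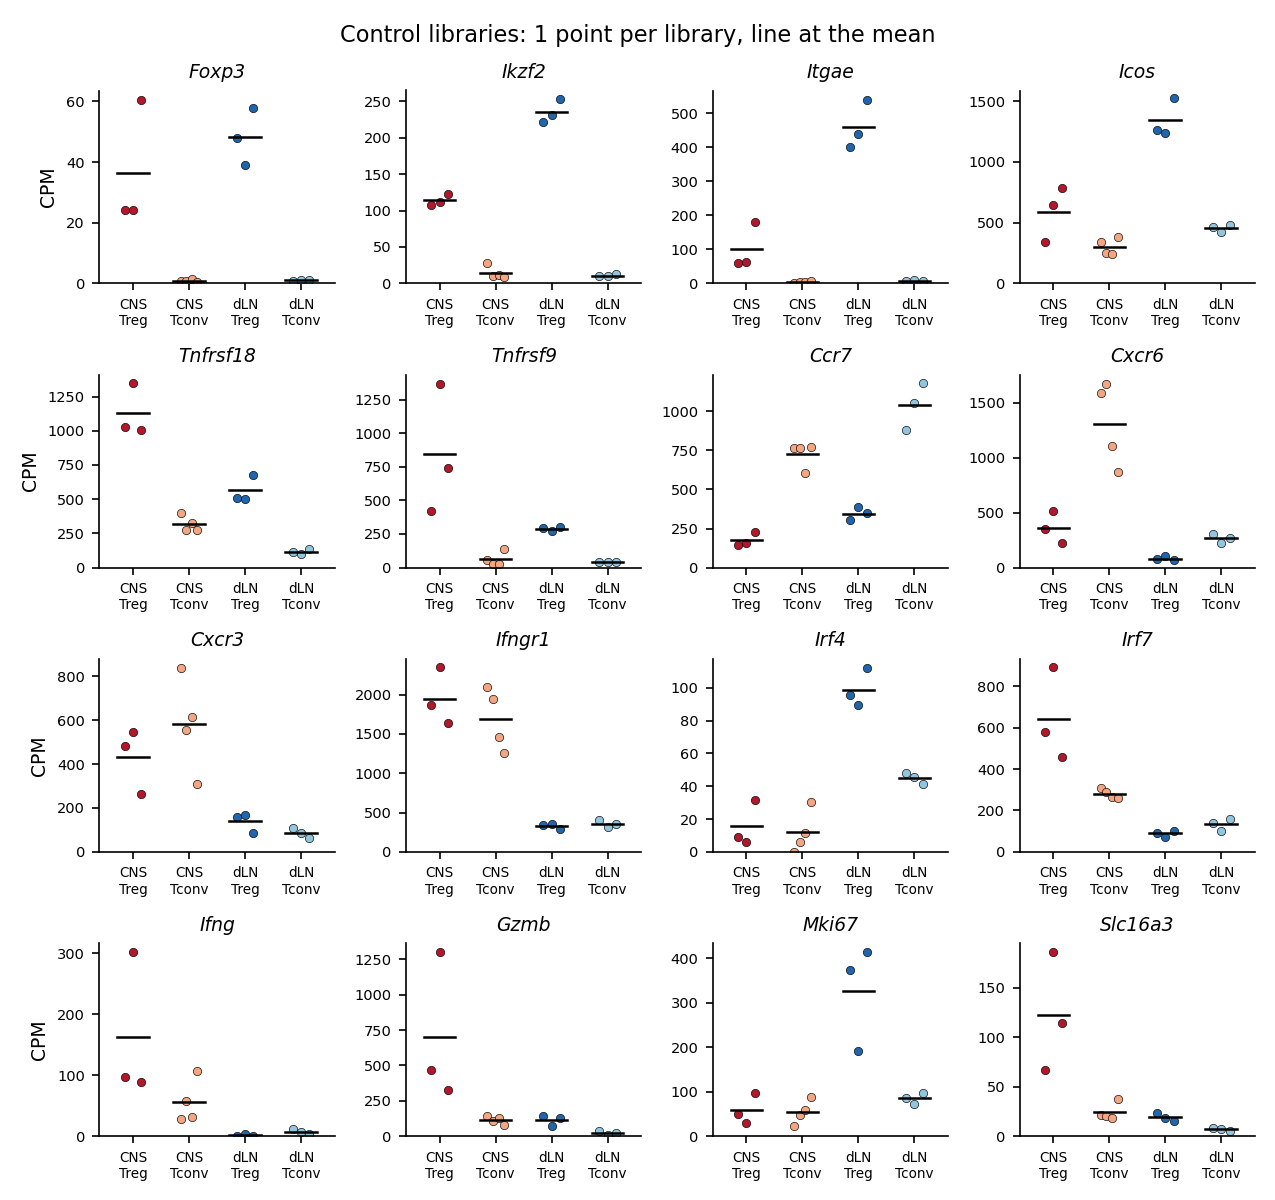
Levels (CPM on linear axes) of 16 T cell genes in the 13 control libraries, 1 point per library and a line at the group mean, for CNS Treg, CNS Tconv, dLN Treg and dLN Tconv cells. Foxp3 overlaps between the Treg groups, Ikzf2, Itgae, Icos, Ccr7, Irf4 and Mki67 are lower in CNS Treg libraries, and the other 9 genes are higher there than in the dLN Treg libraries.

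Effector Treg genes also split: 6 of 23 rose and 5 fell (median 0.24; all genes: 14.5% higher, 9.08% lower). Over fits with 1 library left out, effector Treg genes had 3 to 6 called higher (over 1.5 times off without node replicate 1) and 1 to 6 called lower (over 1.5 times off without CNS replicates 1 and 2 and node replicates 1, 2 and 3). Gzmb, granzyme B, a protease of cytotoxic granules, stood at 474, 1305 and 333 CPM in the CNS libraries and 144, 73.2 and 128 CPM in the node libraries (log2 fold change 2.61 ± 0.51 (SE), adjusted p = 0.011), highest in CNS replicate 2. Pdcd1, the inhibitory receptor PD-1, was at 332, 366 and 465 CPM in the CNS libraries and 171, 198 and 147 CPM in the node libraries (log2 fold change 1.17 ± 0.17 (SE), adjusted p = 0.0039). Fgl2, a secreted protein through which Treg cells suppress, was at 242, 431 and 269 CPM in the CNS libraries and 32.4, 48.2 and 4.64 CPM in the node libraries (log2 fold change 3.46 ± 0.69 (SE), adjusted p = 0.012), and node replicate 3 was far below the other node libraries. In the CNS Tconv libraries Fgl2 was at 56.3, 118 and 59.2 CPM in replicates 1 to 3 and 109.6 CPM in replicate 4. The call for Fgl2 was lost without node replicate 1 (highest adjusted p = 0.052). Gata3, a transcription factor of type 2 and tissue Treg cells, rose by less, from 266, 237 and 266 CPM in the node to 375, 445 and 385 CPM in the CNS libraries (log2 fold change 0.65 ± 0.12 (SE), adjusted p = 0.0084). The groups of these 4 genes did not overlap, nor did those of 46.2% of all genes.

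Icos and Irf4 were among the effector Treg genes that fell. Icos, a costimulatory receptor, stood at 343, 644 and 806 CPM in the CNS libraries and 1274, 1261 and 1536 CPM in the node libraries (log2 fold change -1.18 ± 0.28 (SE), adjusted p = 0.021). The call for Icos was lost without CNS replicate 2 and node replicates 1 and 3 in turn (highest adjusted p = 0.0634). Irf4, a transcription factor that T cell receptor signalling raises and that effector Treg cells need, was at 9.43, 6.07 and 32.3 CPM in the CNS libraries and 96.7, 90.9 and 113 CPM in the node libraries (log2 fold change -2.65 ± 0.56 (SE), adjusted p = 0.014). The call for Irf4 was lost without CNS replicate 1 (highest adjusted p = 0.0504). Both genes were lowest in CNS replicates 1 and 2. Il10, an inhibitory cytokine, was at 2.22, 4.66 and 1.87 CPM in the CNS libraries and 2.42, 1.69 and 3.56 CPM in the node libraries, and its groups overlapped (adjusted p = 0.85). Among 16 inhibitory and costimulatory receptors, 4 rose and 5 fell (all genes: 14.5% higher, 9.08% lower). These receptors, with 1 library left out, had 1 to 5 called lower (over 1.5 times off without CNS replicate 2 and node replicates 1, 2 and 3). Btla, an inhibitory receptor for HVEM, fell from 152, 186 and 147 CPM in the node to 56.8, 42.4 and 56.2 CPM in the CNS libraries (log2 fold change -1.64 ± 0.17 (SE), adjusted p = 0.001). Havcr2, the inhibitory receptor TIM-3 of T cells and myeloid cells, rose from 29.1, 16.4 and 22.6 CPM to 63.0, 81.2 and 63.3 CPM (log2 fold change 1.61 ± 0.24 (SE), adjusted p = 0.0043), with 3.56, 20.4, 14.0 and 26.8 CPM in the CNS Tconv libraries. Tnfrsf9, the costimulatory receptor 4-1BB, was at 425, 1374 and 760.1 CPM in the CNS libraries and 299, 276 and 304 CPM in the node libraries (log2 fold change 1.54 ± 0.36 (SE), adjusted p = 0.021). The call for Tnfrsf9 was lost without node replicates 1, 2 and 3 in turn (highest adjusted p = 0.077).

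Ccr7, which homes T cells to lymph nodes, fell, and the inflammatory chemokine receptors Ccr2, Cxcr3 and Cxcr6 rose. Of 20 genes of naive cells and node homing 5 fell and 1 rose (median -0.17), and of 13 chemokine receptors 5 rose and 2 fell (median 0.07). Over all genes 14.5% were called higher and 9.08% lower. Ccr7, which guides T cells into the T zone, stood at 149, 156 and 234 CPM in the CNS libraries and 306, 393 and 349 CPM in the node libraries (log2 fold change -0.96 ± 0.19 (SE), adjusted p = 0.012). Id3, an inhibitor of E proteins, was at 31.6, 20.001 and 45.6 CPM in the CNS libraries and 115, 200.3 and 113 CPM in the node libraries (log2 fold change -2.14 ± 0.34 (SE), adjusted p = 0.0055). Both were lower in all 3 CNS libraries, where 46.2% of all genes had no overlap in either direction. Cnn3, a calponin that binds actin, was on the naive list but rose, from 5.93, 8.43 and 1.93 CPM to 35.6, 81.0 and 33.3 CPM (log2 fold change 3.19 ± 0.57 (SE), adjusted p = 0.0079), where its Tconv tissue difference was -0.84 (Treg minus Tconv 4.03 ± 0.63 (SE), adjusted p = 0.0078). The naive list had, with 1 library left out, 1 to 2 called higher (over 1.5 times off without CNS replicate 3) and 2 to 7 called lower (over 1.5 times off without CNS replicates 1 and 2 and node replicates 1, 2 and 3).

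Ccr2, the receptor for CCL2 on monocytes and effector T cells, stood at 296, 388 and 229.9 CPM in the CNS libraries and 100.1, 97.2 and 101 CPM in the node libraries (log2 fold change 1.62 ± 0.19 (SE), adjusted p = 0.0017), and at 332, 366, 463 and 187 CPM in the CNS Tconv libraries. Cxcr6, the CXCL16 receptor of tissue T cells, was at 358, 515 and 228 CPM in the CNS libraries and 75.1, 105 and 69.9 CPM in the node libraries (log2 fold change 2.14 ± 0.30 (SE), adjusted p = 0.0036). For both, every CNS library was above every node library, where 46.2% of all genes had no overlap in either direction. Cxcr3, the receptor for interferon-induced chemokines, rose by 1.64 on the log2 scale (SE 0.33, adjusted p = 0.012), and Cxcr3 and Cxcr6 were called in control Tconv cells too (2.77 and 2.31). Ccr1, which is common on myeloid cells, stood at 65.3, 94.5 and 80.7 CPM in the CNS libraries and 2.61, 8.56 and 7.81 CPM in the node libraries (log2 fold change 3.67 ± 0.42 (SE), adjusted p = 0.0016) and only at 1.85, 5.64, 2.49 and 6.73 CPM in the CNS Tconv libraries. Cxcr5, which draws cells to B cell follicles, was at 11.6, 4.66 and 18.3 CPM in the CNS libraries and 46.2, 52.0 and 40.9 CPM in the node libraries (log2 fold change -2.01 ± 0.44 (SE), adjusted p = 0.015). The call for Cxcr5 was lost without CNS replicate 1 and node replicate 1 in turn (highest adjusted p = 0.0547). Ccr6, the CCL20 receptor, was also called lower (log2 fold change -1.72 ± 0.47 (SE), adjusted p = 0.034). The call for Ccr6 was lost without CNS replicates 1 and 2 and node replicates 1, 2 and 3 in turn and with scaling to the T cell receptor genes (highest adjusted p = 0.111). The chemokine receptors, with 1 library left out, had 0 to 3 called lower (over 1.5 times off without CNS replicates 1 and 2 and node replicates 1, 2 and 3).

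Of 16 integrins and adhesion genes 5 rose and 0 fell (median 0.31), beside 14.5% higher and 9.08% lower over all genes. The integrin list, with 1 library left out, had 2 to 5 called higher (over 1.5 times off without CNS replicates 1 and 2 and node replicates 1 and 3) and 0 to 1 called lower (over 1.5 times off without CNS replicate 3). Selplg, the selectin ligand PSGL-1, stood at 2047, 2022 and 1394 CPM in the CNS libraries and 716, 728 and 767 CPM in the node libraries (log2 fold change 1.31 ± 0.16 (SE), adjusted p = 0.002). Itgb3, the beta 3 integrin chain, was at 269, 197 and 229 CPM in the CNS libraries and 86.6, 56.4 and 40.1 CPM in the node libraries (log2 fold change 1.92 ± 0.27 (SE), adjusted p = 0.0038). Both were higher in all CNS libraries, where 46.2% of all genes had no overlap in either direction. Itga4, the chain of VLA-4 through which T cells enter the CNS, was at 126, 105 and 111 CPM in the CNS libraries and 56.7, 60.4 and 19.3 CPM in the node libraries (log2 fold change 1.33 ± 0.37 (SE), adjusted p = 0.038), with node replicate 3 lowest. The call for Itga4 was lost without CNS replicates 1, 2 and 3 and node replicate 1 in turn (highest adjusted p = 0.103). Cd226, an activating receptor for nectins, rose as well (log2 fold change 0.72 ± 0.18 (SE), adjusted p = 0.026). The call for Cd226 was lost without CNS replicates 1 and 2 and node replicates 1 and 3 in turn (highest adjusted p = 0.09).

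Of 22 transcription factors of helper lineages 10 rose and 6 fell (median 0.36), beside 14.5% higher and 9.08% lower over all genes. These factors, with 1 library left out, had 5 to 8 called higher (over 1.5 times off without CNS replicate 2 and node replicates 1, 2 and 3) and 2 to 8 called lower (over 1.5 times off without CNS replicates 1 and 2 and node replicates 1 and 3). Nfil3, a bZIP repressor, stood at 86.0, 177 and 99.3 CPM in the CNS libraries and 26.1, 20.6 and 22.3 CPM in the node libraries (log2 fold change 2.39 ± 0.28 (SE), adjusted p = 0.0019). Id2, an inhibitor of E proteins that effector cells raise, was at 479, 649.7 and 440.1 CPM in the CNS libraries and 267, 218 and 225 CPM in the node libraries (log2 fold change 1.14 ± 0.17 (SE), adjusted p = 0.0043), and Bhlhe40, a factor of cytokine-producing T cells, was at 230.1, 541 and 330.1 CPM in the CNS libraries and 129.8, 133 and 134 CPM in the node libraries (log2 fold change 1.47 ± 0.28 (SE), adjusted p = 0.0097). No CNS library of these 3 genes overlapped a node library, as for 46.2% of all genes. Tbx21, the type 1 factor T-bet, rose from 20.8, 20.7 and 6.89 CPM to 79.0, 68.9 and 35.0 CPM (log2 fold change 1.91 ± 0.46 (SE), adjusted p = 0.022). The call for Tbx21 was lost without CNS replicates 1 and 2 and node replicate 1 in turn (highest adjusted p = 0.0707). Ahr, a receptor for environmental and dietary ligands, fell from 102, 97.0 and 119 CPM in the node to 54.0, 64.6 and 59.3 CPM in the CNS libraries (log2 fold change -0.84 ± 0.14 (SE), adjusted p = 0.0065). In Tconv cells Ahr went the other way (1.37), and the tissue differences differed (Treg minus Tconv -2.22 ± 0.28 (SE), adjusted p = 0.0019).

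Ifng, Csf2, Il17a, Il21, Il22 and Il2, effector cytokines known from conventional T cells, rose in CNS Treg libraries from at most 4.04 CPM in any node Treg library. Of 16 lymphocyte cytokine genes these 6 rose and 1 fell (median 0.29), beside 14.5% higher and 9.08% lower over all genes. Ifng, interferon gamma, stood at 98.0, 303 and 90.0 CPM in the CNS libraries and 0.892, 4.04 and 0 CPM in the node libraries (log2 fold change 6.60 ± 0.97 (SE), adjusted p = 0.0042), and at 27.5, 58.1, 31.2 and 106 CPM in the CNS Tconv libraries. Csf2, the cytokine GM-CSF that drives myeloid inflammation in EAE, was at 55.8, 55.1 and 10.04 CPM in the CNS libraries and 0.382, 0.202 and 0 CPM in the node libraries (log2 fold change 7.56 ± 0.94 (SE), adjusted p = 0.0023), and at 3.49, 7.62, 3.51 and 51.6 CPM in the CNS Tconv libraries. CNS replicate 2 held the most Ifng, and CNS replicate 3 the least Csf2. Il17a had no reads in any node Treg library and was at 5.67, 9.65 and 2.70 CPM in the CNS libraries, at least 28.8-fold higher, and at 4.08, 3.84, 1.17 and 6.11 CPM in the CNS Tconv libraries. Il21 was at 16.8, 11.3 and 1.87 CPM in the CNS libraries and 0.637, 1.15 and 0.542 CPM in the node libraries (log2 fold change 3.67 ± 0.83 (SE), adjusted p = 0.018). The call for Il21 was lost without CNS replicates 1 and 2 and node replicates 1 and 3 in turn, in the fit of the 12 Treg libraries and in the fit of 25 libraries (highest adjusted p = 0.157). Il22 and Il2 were also called higher, from at most 0.191 and 0.741 CPM in node libraries, with CNS replicate 2 highest. The call for Il22 was lost without CNS replicate 2 and node replicates 1, 2 and 3 in turn and in the fit of the 12 Treg libraries (highest adjusted p = 0.102). The call for Il2 was lost without CNS replicates 1 and 2 and node replicates 1, 2 and 3 in turn and by limma with quality weights (highest adjusted p = 0.142). Ebi3, a subunit of IL-27 and IL-35, was the gene that fell (log2 fold change -1.09 ± 0.28 (SE), adjusted p = 0.026). The call for Ebi3 was lost without CNS replicates 1 and 2 and node replicates 1, 2 and 3 in turn (highest adjusted p = 0.0854). The cytokine list, with 1 library left out, had 3 to 7 called higher (over 1.5 times off without CNS replicate 2 and node replicates 1 and 3) and 0 to 2 called lower (over 1.5 times off without CNS replicates 1, 2 and 3 and node replicates 1, 2 and 3). In control Tconv cells 3 of the 6 had the same sign and 1 was called, with and without CNS Tconv replicates 3 and 4. Without those replicates the Tconv differences of Il21, Il22 and Il2 were -3.48, -3.31 and -0.69 and not called. The Treg minus Tconv difference was called for 0 of the 6 over 13 libraries. Without those replicates edgeR called it for Csf2, Il21 and Il22 (4.81, 7.16 and 9.56, adjusted p = 0.047, 0.027 and 0.043). The part of conventional T cells in these Treg libraries was not tested.

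Of 24 cytokine receptors 8 rose and 3 fell (median 0.38), beside 14.5% higher and 9.08% lower over all genes. The receptor list, with 1 library left out, had 4 to 9 called higher (over 1.5 times off without CNS replicates 1 and 2 and node replicates 1 and 2). Ifngr1, the ligand-binding chain of the interferon gamma receptor, stood at 1886, 2359.5 and 1670.3 CPM in the CNS libraries and 346, 361 and 289 CPM in the node libraries (log2 fold change 2.57 ± 0.16 (SE), adjusted p = 0.00016). In the CNS Tconv libraries Ifngr1 was at 2092, 1944, 1456 and 1261 CPM and in the node Tconv libraries at 399, 316 and 356 CPM, and the tissue difference of Treg cells was not called different from that of Tconv cells (Treg minus Tconv 0.31 ± 0.26 (SE), adjusted p = 0.62). Both chains of the IL-10 receptor rose, Il10ra at 207, 283 and 252 CPM in the CNS libraries and 119, 129 and 120.4 CPM in the node libraries (log2 fold change 1.01 ± 0.14 (SE), adjusted p = 0.0035) and Il10rb by less (log2 fold change 0.96 ± 0.14 (SE), adjusted p = 0.0044). Il6st, the gp130 chain of the IL-6 receptor family, fell from 175, 197 and 177 CPM to 67.8, 101 and 107 CPM (log2 fold change -0.99 ± 0.18 (SE), adjusted p = 0.0088). Il1r2, a decoy receptor for IL-1 on Treg cells, fell from 279, 327 and 311 CPM to 99.9, 168 and 163 CPM (log2 fold change -1.09 ± 0.20 (SE), adjusted p = 0.0089). The groups of both did not overlap, nor did those of 46.2% of all genes. The call for Il6st was lost in the fit of 25 libraries (highest adjusted p = 0.0918). The call for Il1r2 was lost in the fit of the 12 Treg libraries and in the fit of 25 libraries (highest adjusted p = 0.127).

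Interferon response genes rose together. Interferons act through transcription factors that bind the interferon-stimulated response element (ISRE) in the promoters of antiviral genes. Because most members of this list rose, the ISRE letters GAAANNGAAA were searched on both strands in the 250 bases before each gene's start in RefSeq (GRCm38.p6). Of 22 tested members with a promoter in the table, 14 (63.6%) held them, against 330 of 9420 tested genes (3.5%) and 936 of all 27025 genes (3.46%). Of the 20 called members 13 (65%) did. The members were chosen as interferon response genes, so these shares describe the list and not its rise. Stretches of 120 bases from 4 promoters are shown, 5′ to 3′ along the gene, with the matching letters of either strand in capitals; overlapping matches run together. A match describes these letters and no factor's binding.
Ifit3, chr19:34583353-34583472, plus strand: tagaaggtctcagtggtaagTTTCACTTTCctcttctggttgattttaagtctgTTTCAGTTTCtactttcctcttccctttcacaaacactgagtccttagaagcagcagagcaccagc
Isg15, chr4:156200819-156200938, minus strand: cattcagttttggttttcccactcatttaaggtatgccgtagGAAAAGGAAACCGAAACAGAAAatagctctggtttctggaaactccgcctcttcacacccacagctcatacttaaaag
Oas1a, chr5:120907526-120907645, minus strand: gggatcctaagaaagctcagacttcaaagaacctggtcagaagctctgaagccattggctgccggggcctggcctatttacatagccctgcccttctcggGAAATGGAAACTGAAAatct
Rsad2, chr12:26456473-26456592, minus strand: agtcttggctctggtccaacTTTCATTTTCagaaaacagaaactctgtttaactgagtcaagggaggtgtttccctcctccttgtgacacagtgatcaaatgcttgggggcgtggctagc

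Of 28 tested interferon genes 24 were called higher and 0 lower, with a median log2 fold change of 1.67, and 27 were above 0. Over all tested genes 14.5% were called higher and 9.08% lower, and 50.3% were above 0. The list summed to 7679, 12987 and 6527 CPM in the CNS libraries and 3704, 3127 and 3116 CPM in the node libraries. Every CNS library was above every node library, and CNS replicate 2 was highest. In all 6 fits with 1 library left out, 18 of the 24 were called, beside 807 of all 1725 genes called higher. The number of list genes called was 19 to 24. Of the 24, all had the same sign in icKO Treg cells and 22 were called there. Of all genes called higher and also tested there, 99.5% had the same sign and 72.2% were called higher. In control Tconv cells 23 of 24 had the same sign and 2 were called, or 22 and 7 without CNS Tconv replicates 3 and 4. The sums of microglia and monocyte genes were high in the same 3 libraries.

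Irf7, the transcription factor that amplifies type I interferon, stood at 585, 894 and 470.3 CPM in the CNS libraries and 94.2, 74.5 and 101 CPM in the node libraries (log2 fold change 2.86 ± 0.25 (SE), adjusted p = 0.00058), and at 309.6, 288, 267 and 260.2 CPM in the CNS Tconv libraries. Its tissue difference was larger in Treg than in Tconv cells (Treg minus Tconv 1.76 ± 0.30 (SE), adjusted p = 0.011). Oasl2, an oligoadenylate synthetase-like gene, was at 145, 323 and 146 CPM in the CNS libraries and 12.9, 13.01 and 19.3 CPM in the node libraries (log2 fold change 3.77 ± 0.37 (SE), adjusted p = 0.00095), and its difference too was larger in Treg cells (Treg minus Tconv 2.80 ± 0.52 (SE), adjusted p = 0.015). CNS replicate 2 held the highest level of both. Rsad2, the antiviral enzyme viperin, whose promoter stretch is among those shown, was at 105, 244 and 72.8 CPM in the CNS libraries and 19.6, 16.0 and 16.6 CPM in the node libraries (log2 fold change 3.01 ± 0.43 (SE), adjusted p = 0.0039). Oas1a, a sensor of double-stranded RNA, was at 118, 184 and 137 CPM in the CNS libraries and 47.7, 48.2 and 55.2 CPM in the node libraries (log2 fold change 1.54 ± 0.18 (SE), adjusted p = 0.0019). Ifit3 and Isg15, an RNA-sensing complex protein and a ubiquitin-like modifier, rose with log2 fold changes of 3.20 and 2.13 (adjusted p = 0.0048 and 0.0045). Members of the Ifit, Gbp and Oas families resemble each other, and reads could be split between copies.

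Cell cycle genes were lower in CNS Treg libraries. Of 38 tested genes 30 were called lower and 0 higher, with a median log2 fold change of -1.28. Over all tested genes 9.08% were called lower and 14.5% higher. The list summed to 2959, 2196 and 4435 CPM in the CNS libraries and 7827, 6029 and 7699 CPM in the node libraries, with CNS replicate 3 the highest of its group and still below all node libraries. The cell cycle list, with 1 library left out, had 5 to 35 called lower (over 1.5 times off without CNS replicate 1 and node replicates 1, 2 and 3). In icKO Treg cells all 30 were called lower, with a list median of -1.78. Of all genes called lower in control Treg cells and also tested there, 59.6% were called lower. In control Tconv cells 26 of the 30 had the same sign and 0 were called by edgeR, or 24 and 1 without CNS Tconv replicates 3 and 4.

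Mki67, the proliferation antigen Ki-67, stood at 51.4, 28.6 and 99.5 CPM in the CNS libraries and 378, 195 and 417 CPM in the node libraries (log2 fold change -2.46 ± 0.46 (SE), adjusted p = 0.0097). Kif11, a kinesin of the mitotic spindle, was at 56.1, 34.1 and 72.2 CPM in the CNS libraries and 186, 119.9 and 198 CPM in the node libraries (log2 fold change -1.63 ± 0.30 (SE), adjusted p = 0.0085). Ccne2, cyclin E2, which starts DNA replication, was at 9.51, 8.05 and 14.4 CPM in the CNS libraries and 35.7, 34.5 and 47.7 CPM in the node libraries (log2 fold change -1.88 ± 0.28 (SE), adjusted p = 0.0044), and Tyms, thymidylate synthase, at 66.3, 46.8 and 85.6 CPM in the CNS libraries and 145, 127 and 155 CPM in the node libraries (log2 fold change -1.10 ± 0.22 (SE), adjusted p = 0.011). All 4 were lower in each CNS library than in any node library, where 46.2% of all genes had no overlap in either direction. The call for Kif11 was lost in the fit of 25 libraries (highest adjusted p = 0.0869). Mitotic genes often carry the cell cycle homology region, letters TTTGAA, and genes of DNA replication an E2F site, letters TTTCCCGC or TTTGGCGC. Searched on both strands in the same 250 bases, TTTGAA stood in 8 of 32 members with a promoter (25%) against 1206 of 9420 tested genes (12.8%), and an E2F site in 5 (15.6%) against 285 (3.03%). The members were chosen as cell cycle genes, so these shares too describe the list and not its fall. The stretches of 2 genes that fell are shown with TTTGAA or its complement TTCAAA in capitals, 5′ to 3′ along the gene.
Mki67, chr7:135716396-135716515, minus strand: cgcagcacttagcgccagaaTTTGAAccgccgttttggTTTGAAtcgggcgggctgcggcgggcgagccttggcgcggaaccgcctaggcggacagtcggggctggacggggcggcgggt
Kif11, chr19:37376262-37376381, plus strand: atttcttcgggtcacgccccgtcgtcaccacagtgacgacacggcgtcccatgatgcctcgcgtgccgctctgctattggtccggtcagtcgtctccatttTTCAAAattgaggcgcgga

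Of the 10 largest falls of the whole comparison, 7 are known from the cell cycle. Kif14, Aspm, Cit and Knl1 are genes of mitosis and cytokinesis, and Hist1h1b, Hist1h2ab and Hist1h2ae encode histones made in S phase, with near-identical copies between which reads could be split. Hist1h1b stood at 4.601, 5.18 and 16.5 CPM in the CNS libraries and 109.8, 77.2 and 106 CPM in the node libraries (log2 fold change -3.47 ± 0.49 (SE), adjusted p = 0.0037). Aspm, a spindle pole protein, was at 2.22, 0.959 and 23.0 CPM in the CNS libraries and 66.8, 62.3 and 110.2 CPM in the node libraries (log2 fold change -3.18 ± 0.97 (SE), adjusted p = 0.0491). Kif14 was at 0, 0 and 1.67 CPM in the CNS libraries and 14.6, 8.63 and 19.7 CPM in the node libraries (log2 fold change -4.63 ± 1.24 (SE), adjusted p = 0.031). Node replicate 2 was the lowest node library for Kif14 and CNS replicate 3 the highest CNS library for all 3. The call for Aspm was lost without CNS replicates 1 and 2 and node replicates 1, 2 and 3 in turn, and with scaling to the T cell receptor genes (highest adjusted p = 0.122). The call for Kif14 was lost without CNS replicates 1 and 2 and node replicates 1, 2 and 3 in turn and by the DESeq2 Wald test (highest adjusted p = 0.0962). Knl1 and Hist1h2ab were each called in 1 of the 6 fits that left out 1 library. The other 3 of the 10 were Ttn, Gjb2 and Dhx9, a muscle protein, a gap junction protein and an RNA helicase, with log2 fold changes of -2.99, -2.74 and -2.68. The call for Gjb2 was lost without CNS replicates 1 and 2 and node replicates 1, 2 and 3 in turn (highest adjusted p = 0.0924). Ccl8, a chemokine, also fell (log2 fold change -2.58 ± 0.35 (SE), adjusted p = 0.0031).

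Immediate early genes, which respond within minutes to receptor signals and to handling of tissue, rose in part. Of 19 tested genes 10 rose and 1 fell (median 0.96), beside 14.5% higher and 9.08% lower over all genes. Fos, an AP-1 subunit, stood at 414, 789.8 and 417 CPM in the CNS libraries and 9.49, 20.3 and 8.36 CPM in the node libraries (log2 fold change 5.41 ± 0.44 (SE), adjusted p = 0.00042). Its CNS Tconv level was 120.1, 129.8, 135 and 96.1 CPM against 18.5, 13.8 and 14.6 CPM in the node Tconv libraries, and the tissue difference was larger in Treg cells (Treg minus Tconv 2.45 ± 0.44 (SE), adjusted p = 0.014). Jun, its partner, was at 392, 517 and 166 CPM in the CNS libraries and 6.05, 20.9 and 3.02 CPM in the node libraries (log2 fold change 5.16 ± 0.75 (SE), adjusted p = 0.004), where the Tconv difference, also called, was 4.72. Ier3, a stress-induced survival gene, was at 21.2, 82.0 and 25.9 CPM in the CNS libraries and 0.892, 1.28 and 1.86 CPM in the node libraries (log2 fold change 5.01 ± 0.63 (SE), adjusted p = 0.0024), and its Tconv difference was not called (0.77). Dusp1, a MAP kinase phosphatase, was at 871, 1362 and 608 CPM in the CNS libraries and 133, 151 and 182 CPM in the node libraries (log2 fold change 2.61 ± 0.29 (SE), adjusted p = 0.0014). Zfp36, which destabilises cytokine mRNA, rose as well (log2 fold change 2.27 ± 0.33 (SE), adjusted p = 0.0041). For these 5 genes no CNS library reached down to a node library, where 46.2% of all genes had no overlap in either direction.

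Egr2, a factor that T cell receptor signalling raises, went the other way, at 13.6, 27.2 and 33.9 CPM in the CNS libraries and 71.9, 97.5 and 76.8 CPM in the node libraries (log2 fold change -1.72 ± 0.32 (SE), adjusted p = 0.0091). The call for Egr2 was lost in the fit of 25 libraries (highest adjusted p = 0.0619). The immediate early list, with 1 library left out, had 1 to 2 called lower (over 1.5 times off without CNS replicate 3). Of 18 NF-kB components and targets 3 rose and 2 fell (median 0.18), shares near those over all genes. The NF-kB list, with 1 library left out, had 1 to 4 called higher (over 1.5 times off without CNS replicate 2 and node replicates 1 and 2) and 0 to 2 called lower (over 1.5 times off without CNS replicates 1 and 2 and node replicates 1, 2 and 3). Tnfaip3, the inhibitor A20, stood at 421, 696 and 531 CPM in the CNS libraries and 164, 179 and 188 CPM in the node libraries (log2 fold change 1.64 ± 0.18 (SE), adjusted p = 0.0015), and all CNS libraries were above all node libraries. Nfkbiz and Rela were called higher and Traf3 and Tnip1 lower, each by at most 1.10 on the log2 scale. Each of these 4 was called in at most 2 of the 6 fits that left out 1 library, and Nfkbiz and Rela were not called with the replicate block (adjusted p = 0.055 and 0.057).

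Genes of glycolysis, the breakdown of glucose to pyruvate and lactate, rose in part. Of 20 tested genes 11 rose and 1 fell (median 0.60), beside 14.5% higher and 9.08% lower over all genes. The glycolysis list, with 1 library left out, had 6 to 11 called higher (over 1.5 times off without node replicates 1, 2 and 3) and 0 to 1 called lower (over 1.5 times off without node replicate 1). Slc16a3, the lactate exporter MCT4, stood at 67.5, 187 and 117 CPM in the CNS libraries and 23.4, 18.5 and 15.4 CPM in the node libraries (log2 fold change 2.70 ± 0.37 (SE), adjusted p = 0.0032). Slc2a1, the glucose transporter GLUT1, was at 141, 269 and 184 CPM in the CNS libraries and 59.8, 61.9 and 44.3 CPM in the node libraries (log2 fold change 1.84 ± 0.25 (SE), adjusted p = 0.0033). Aldoa, aldolase A, was at 1084, 1736 and 1181 CPM in the CNS libraries and 606, 627 and 585 CPM in the node libraries (log2 fold change 1.14 ± 0.18 (SE), adjusted p = 0.0052). Bnip3, a mitochondrial protein induced by low oxygen, was at 20.7, 69.8 and 54.6 CPM in the CNS libraries and 5.22, 8.36 and 10.8 CPM in the node libraries (log2 fold change 2.58 ± 0.47 (SE), adjusted p = 0.0088). CNS replicate 2 was highest for all 4, and the groups did not overlap, as for 46.2% of all genes. In control Tconv cells all 11 had the same sign and 6 were called, or 8 without CNS Tconv replicates 3 and 4. Slc16a1, the transporter MCT1, was the gene that fell (log2 fold change -1.03 ± 0.21 (SE), adjusted p = 0.013). The call for Slc16a1 was lost without node replicate 1 (highest adjusted p = 0.0608).

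Of 35 tested genes of oxidative phosphorylation 4 fell and 0 rose (median -0.15), Atp5c1, Ndufa4, Cox6c and Atp5a1, with log2 fold changes of -0.43, -0.54, -0.38 and -0.35, a share near the 9.08% called lower over all genes. The oxidative phosphorylation list, with 1 library left out, had 0 to 7 called lower (over 1.5 times off without CNS replicates 1, 2 and 3 and node replicates 1, 2 and 3). Each of the 4 was called in at most 2 of the 6 fits that left out 1 library, and Cox6c and Atp5a1 were not called with the replicate block (adjusted p = 0.062 and 0.082). Of 20 cholesterol genes 1 rose and 1 fell, a smaller share than over all genes. Dhcr7, the last enzyme of the pathway, was called lower (log2 fold change -0.46 ± 0.14 (SE), adjusted p = 0.0484). Dhcr7 was called in none of the 6 fits that left out 1 library, nor with the replicate block (adjusted p = 0.083). The cholesterol list, with 1 library left out, had 1 to 3 called higher (over 1.5 times off without CNS replicate 3) and 0 to 1 called lower (over 1.5 times off without CNS replicates 1 and 2 and node replicates 1, 2 and 3). Of 16 BCL2 family and death genes 2 rose, Fasl, the Fas ligand (log2 fold change 2.31 ± 0.69 (SE), adjusted p = 0.0452), and Pmaip1, the killer NOXA (log2 fold change 0.71 ± 0.21 (SE), adjusted p = 0.043), a share below the 14.5% called higher over all genes. The call for Fasl was lost without CNS replicates 1 and 2 and node replicate 1 in turn (highest adjusted p = 0.142). The call for Pmaip1 was lost without CNS replicates 1 and 2 and node replicates 1 and 2 in turn, with scaling to the T cell receptor genes and with the replicate block (highest adjusted p = 0.156). The death gene list, with 1 library left out, had 0 to 4 called higher (over 1.5 times off without CNS replicates 1, 2 and 3 and node replicates 1 and 2). Of 17 T cell receptor genes Cd2 was called higher and Cd5 and Cd28 lower (median 0.06), shares near or below those over all genes. Cd2 and Cd5 were called in 1 and Cd28 in 3 of the 6 fits that left out 1 library, and Cd5 was not called with the replicate block (adjusted p = 0.079). The T cell receptor list, with 1 library left out, had 0 to 2 called higher (over 1.5 times off without CNS replicates 2 and 3 and node replicates 1, 2 and 3) and 0 to 3 called lower (over 1.5 times off without CNS replicates 1 and 2 and node replicates 1, 2 and 3).

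Of 16 genes of S100 proteins, annexins, galectins and Ahnak 8 rose and 1 fell (median 0.49), beside 14.5% higher and 9.08% lower over all genes. This list, with 1 library left out, had 4 to 9 called higher (over 1.5 times off without CNS replicates 1 and 2 and node replicates 1, 2 and 3). Anxa1, annexin A1, a lipid-binding protein that dampens inflammation, stood at 149.6, 87.1 and 80.2 CPM in the CNS libraries and 7.58, 5.46 and 6.65 CPM in the node libraries (log2 fold change 4.01 ± 0.30 (SE), adjusted p = 0.00026). Lgals3, galectin 3, was at 353, 548 and 232 CPM in the CNS libraries and 64.3, 84.3 and 64.8 CPM in the node libraries (log2 fold change 2.41 ± 0.30 (SE), adjusted p = 0.0023). Both were higher in every CNS library, where 46.2% of all genes had no overlap in either direction. In the CNS Tconv libraries Anxa1 was at 139, 207, 177 and 96.0 CPM and Lgals3 at 292, 291, 185 and 116 CPM. Anxa4 and Anxa5 also rose (1.503 and 0.72). Ahnak, a giant scaffold protein of memory T cells, fell from 317, 305 and 301 CPM to 199, 212 and 169 CPM (log2 fold change -0.67 ± 0.12 (SE), adjusted p = 0.0081), while its Tconv difference was 1.51 and called higher (Treg minus Tconv -2.19 ± 0.25 (SE), adjusted p = 0.0013).

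The icKO Treg cells repeated the comparison in 6 other libraries, of the genotype in which tamoxifen is meant to delete Tnfrsf1b. How far it was deleted is not reported here. There 2702 of 11823 tested genes were called (22.9%), 1532 higher (13%) and 1170 lower (9.9%). Of the 1633 genes called higher in control Treg cells that were also tested, 1179 (72.2%) were called higher and 1625 (99.5%) had the same sign. Of 1081 called lower, 644 (59.6%) were called lower and 1072 (99.2%) had the same sign. No gene was called in the opposite direction. On T cell lists, 83 of 101 tested genes that rose and 52 of 65 that fell were called the same way. The difference between the 2 genotypes' tissue differences was called for 0 of 12594 genes by edgeR, with 409 at an unadjusted p under 0.05. Ikzf2, which fell in control cells (-1.04 on the log2 scale), was not called in icKO cells (-0.33, adjusted p = 0.102). Irf7 rose by 2.86 and 2.64, Ifngr1 by 2.57 and 2.41, Anxa1 by 4.01 and 3.80, and Mki67 fell by 2.46 and 2.93.

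**Figure D4:**
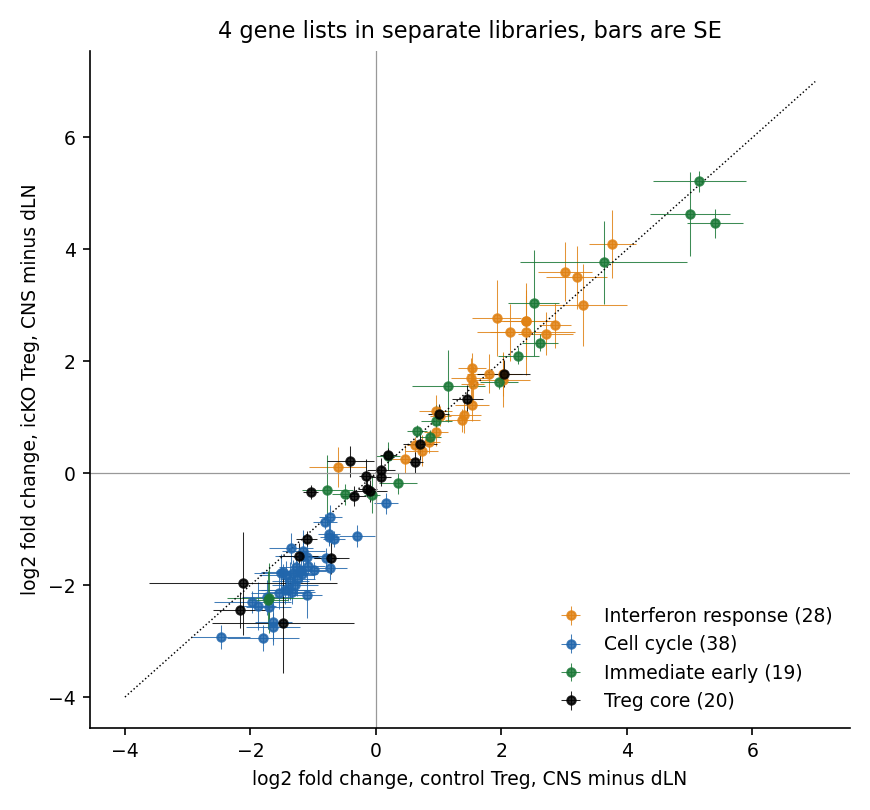
Tissue difference (log2 fold change, CNS minus dLN) in control Treg libraries on the x axis and in icKO Treg libraries on the y axis, 1 point per gene of the interferon, cell cycle, immediate early and Treg core lists, with SE bars and a dotted line at equal values. Interferon and immediate early genes lie mostly in the upper right and cell cycle genes in the lower left.

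Tconv cells of control mice were compared between the tissues in the same way. In a fit of the 7 control Tconv libraries 285 of 11442 genes were called (2.49%), 239 higher (2.09%) and 46 lower (0.402%); without CNS Tconv replicates 3 and 4, 957 of 11624 were higher (8.23%) and 842 lower (7.24%). Of the 104 T cell list genes that rose in Treg cells, 96 had the same sign in Tconv cells and 41 were called, or 94 and 54 without those replicates. Of the 65 that fell, 51 had the same sign and 4 were called, or 48 and 14. Of the 75 genes of other cells, 55 could be tested in Tconv cells, and 36 had the same sign and 6 were called, or 18 and 9 of 56 without those replicates, where 14 were called lower.

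The test of Treg minus Tconv differences called 274 of 12473 genes (2.2%), 216 higher (1.73%) and 58 lower (0.465%). Of these, 202 were higher there and called higher in Treg cells, and 28 lower and called lower. Lists of other cells held 22 of them and T cell lists alone 28. Without CNS Tconv replicates 3 and 4 the number was 956 of 12879 (7.42%). Among the 5 with the smallest p that were called in Treg cells were Cst3, Olfml3, Gpr141 and Ctss, of which Olfml3 is a microglia gene and Cst3 and Ctss, cystatin C and cathepsin S, are abundant in microglia and macrophages. Cst3 stood at 1787, 1640.0 and 1481 CPM in the CNS libraries and 157, 165 and 152 CPM in the node libraries and at 259, 252, 234 and 251 CPM in the CNS Tconv libraries. T cell list genes with a larger rise in Treg cells were among others Fos, Ier3, Zfp36, Irf7, Oasl2, Usp18, Anxa1 and Cnn3. Il4ra, the IL-4 receptor chain, rose in Treg cells while its Tconv difference was -0.76 and not called (Treg minus Tconv 1.63 ± 0.32 (SE), adjusted p = 0.022), with Il4ra at 382, 579.7 and 398 CPM in the CNS libraries and 243, 257 and 243 CPM in the node libraries (log2 fold change 0.87 ± 0.17 (SE), adjusted p = 0.011). The call for Il4ra was lost without node replicate 1 (highest adjusted p = 0.0538). Nrp1 and Il2ra, Treg core genes that were not called in Treg cells (-0.15 and -0.35), differed between the cell types (Treg minus Tconv -1.22 ± 0.16 (SE), adjusted p = 0.0023 for Nrp1, and -1.72 ± 0.37 (SE), adjusted p = 0.03 for Il2ra). Without CNS Tconv replicates 3 and 4 the Treg minus Tconv difference was called with the same sign for Socs2, Ahr, Ahnak, Nrp1, Il2ra, Il4ra, Cnn3, Irf7, Oasl2, Usp18, Fos, Ier3, Zfp36, Anxa1, Cst3, Olfml3, Gpr141 and Ctss, with adjusted p at most 0.0227, and was not called for Ifngr1 (0.067, adjusted p = 0.92). The Tconv tissue differences of Cnn3 and Il4ra, not called with all 7 libraries, were called lower without those replicates (-0.93 and -1.18).

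**Figure D5:**
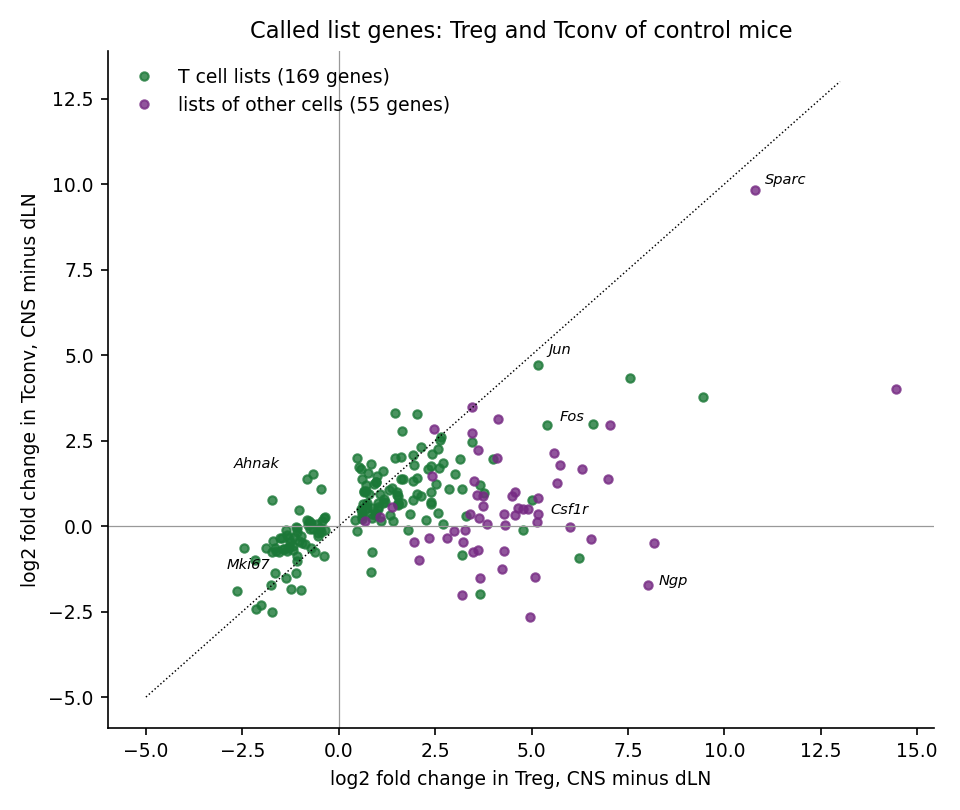
Tissue difference (log2 fold change, CNS minus dLN) of list genes called in control Treg cells, in Treg cells on the x axis and in control Tconv cells on the y axis, 1 point per gene, with a dotted line at equal values. The 169 genes of T cell lists mostly lie in the lower left or upper right, while many of the 55 genes of other cells lie far to the right at small Tconv values.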

How the data were processed

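Polyadenylated RNA of sorted Treg and Tconv cells was copied with SMART-Seq v4, which does not mark strand, and made into libraries with Nextera, per the labels' protocols, so reads of a gene and of an antisense or overlapping gene cannot be told apart. Per the submitters' processing notes, FastQC, Trimmomatic, STAR 2.5.3a and RSEM 1.2.28 were used with mm10. The deposited tables gave an expected count per gene, the reads RSEM assigned to it, for 24848 gene symbols. The deposited TPM, scaled by gene length and library, was tabulated for list genes and not tested, and the FPKM column was not used.

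Expected counts were rounded and tested with edgeR 4.0.16 in R 4.3.3 (filterByExpr, TMM, glmQLFit, glmQLFTest, 2 group means, Benjamini-Hochberg over 11937 genes, threshold 0.05) in the 6 libraries, which held 12422708 to 16860150 counts. SE was derived as log2 fold change over the root of F. Interaction contrasts used the 4 Treg groups (12 libraries) and the 4 control groups (13 libraries). The alternatives were fits of 12, 25 and 26 libraries, 3 scalings, DESeq2 1.42.0, limma 3.58.1 voom with quality weights, 2 filters, blocking on replicate number, and omitting every library in turn. The code was tested on simulated counts.

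Named genes are Foxp3 and Tnfrsf1b, the 10 largest rises and falls among called genes with at least 10 CPM in a group and no overlap, the same among genes with at least 5 CPM in 6 node T cell libraries outside the comparison, up to 4 called members with the smallest p per T cell list and 3 per list of other cells, 5 per interaction, and genes that define a list; some of these genes are not reported here. Other list members given with values were chosen after their values were seen. The members, the 19 T cell lists and the 12 lists of other cells were chosen with earlier results of these data known. Promoters came from RefSeq (GRCm38.p6), and gene positions from the GENCODE annotation of GRCm38. Plots were drawn in matplotlib 3.10.9 (Python 3.11.15, numpy 2.4.6, pandas 2.3.3).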

Additional observations from a re-analysis of the deposited data

Results flagged for a closer look

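The CNS minus dLN difference of control Treg cells differed from that of control Tconv cells for 274 of 12473 genes, by edgeR's interaction test across 13 libraries (adjusted p under 0.05). Among the 5 with the smallest p that were also called in Treg cells, the difference was larger in Treg cells by 2.49 on the log2 scale for Cst3, 8.67 for Olfml3, 10.13 for Gpr141 and 2.67 for Ctss. Among the 4 CNS Tconv libraries, a library far from the others was looked for in 21 levels and sums given in the text, and Csf2 was found, at 51.6 CPM in replicate 4 and at most 7.62 CPM in the others. Chance alone marks about 1 in 20 such groups. Groups of 3 libraries were not searched in this way.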

How the results depend on the processing

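Depth was not varied. A fit of all 26 libraries gave 535 genes higher and 216 lower. Leaving out 1 library at a time gave 872 to 2019 higher and 264 to 1768 lower, and 101 to 638 for the Treg minus Tconv difference. That difference was called for 956 genes without CNS Tconv replicates 3 and 4 and for 495 in 25 libraries. The other settings kept the counts of higher and lower genes within 1.5 times, and the icKO interaction gave 0 genes in each fit tried. The share of calls that were higher was 61.4% to 65.4% over the 4 scalings, and the median of all genes 0.005, 0.02, 0.01 and -0.04. Of 267 called genes on lists or named, 123 were called in the 26-library fit and 162 without node replicate 1, and none changed sign in any setting. List medians changed sign for naive genes (0.0014) and lymphocyte cytokines (-0.19) with a filter of 10 CPM in 3 libraries, and, with 1 library left out, for T cell receptor genes (lowest -0.045 without CNS replicate 1, highest 0.12) and cholesterol genes (lowest -0.032 without CNS replicate 2, highest 0.28); the cause was not tested. Without CNS Tconv replicates 3 and 4, chosen after seeing the data, control Tconv cells had 957 genes higher and 842 lower.

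The same replicate numbers occur in both tissues, and the labels do not say that they mark 1 mouse, although file names of same-numbered CNS and node Treg libraries share a code. Deviations of same-numbered libraries correlated at -0.02, 0.13 and 0.12, and CNS replicate 1 correlated best with another number. With the replicate block 251 of the 267 called list or named genes were called, and 1454 genes were higher and 1023 lower, 0 in the icKO interaction and 339 in the Tconv interaction.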
